A study of Mus musculus with 6 samples.

Results

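Retinoic acid is made from vitamin A inside cells and acts by binding nuclear receptors that sit on DNA. The 9 genes described here encode receptors (Rara, Rarb and Rarg), partner receptors with which they pair (Rxra and Rxrg), proteins that carry retinoic acid within the cell (Crabp1 and Crabp2), an enzyme that makes it (Aldh1a2) and one that breaks it down (Cyp26a1). They were taken by name: each is a row of the deposited array table whose platform gene symbol matches exactly. All 9 were found among 22180 named genes, with 1 probe set each, and no filter on dim signals was used. The arrays measured total RNA of mouse cells in 2 groups of 3 samples. One group is cells sorted by flow cytometry for green fluorescence of a Pax7 reporter (Pax7-GFP) after 3 weeks of differentiation of embryonic stem (ES) cell lines toward skeletal muscle. The other is undifferentiated, pluripotent ES cells, the only comparison available. Muscle progenitors express the transcription factor Pax7, and the gate was set on undifferentiated cultures of the reporter line. The design of the reporter, the number of ES lines or clones and whether the ES samples were sorted too are not stated in the labels.

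In the embryo, retinoic acid made by Aldh1a2 in the trunk mesoderm helps pattern the somites, from which skeletal muscle arises, and the hindbrain and spinal cord. A receptor of the Rar family binds DNA as a pair with an Rxr receptor. Without ligand the pair recruits corepressors, and with ligand it recruits coactivators. Rarb and Cyp26a1 are themselves classical targets of the pathway, and Cyp26a1 thereby limits the signal that switches it on.

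The DNA element behind that feedback is a direct repeat of a hexamer (the letters AGGTCA, the variant AGTTCA, the variant GGGTCA or the variant GGTTCA, in any combination) with 5 bases between the copies. It was searched on both strands of RefSeq promoter windows of GRCm38.p6, from 250 bases before to 50 bases after a start site. The windows of Rarb and Cyp26a1 are shown because they were the ones among the members to hold it. Capitals mark the hexamers.
Rarb promoter, chr14:16575427-16575726, minus strand: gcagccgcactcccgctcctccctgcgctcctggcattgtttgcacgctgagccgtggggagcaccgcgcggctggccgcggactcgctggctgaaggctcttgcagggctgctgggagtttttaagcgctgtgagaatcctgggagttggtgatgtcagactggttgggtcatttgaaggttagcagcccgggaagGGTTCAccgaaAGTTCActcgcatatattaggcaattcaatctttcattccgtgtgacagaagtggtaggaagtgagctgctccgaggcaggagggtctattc
Cyp26a1 promoter, chr19:37697558-37697857, plus strand: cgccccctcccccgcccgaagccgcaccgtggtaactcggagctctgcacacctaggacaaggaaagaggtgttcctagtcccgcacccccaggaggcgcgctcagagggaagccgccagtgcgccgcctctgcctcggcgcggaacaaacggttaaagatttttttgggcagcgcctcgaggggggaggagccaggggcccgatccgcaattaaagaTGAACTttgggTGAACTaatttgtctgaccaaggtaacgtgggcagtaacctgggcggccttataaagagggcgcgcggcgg

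The repeats themselves, each read along the strand on which the hexamers match, are set side by side to show how alike they are.
Rarb repeat: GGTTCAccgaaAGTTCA
Cyp26a1 repeat: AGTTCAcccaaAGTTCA
The Rarb repeat lies from -53 to -37 relative to the start site, on the strand of the gene. That of Cyp26a1 lies from -32 to -16, on the opposite strand. Of 32851 windows in the RefSeq table, 32 (0.0974%) held such a repeat, which is 31 of 27025 genes. Of the members, 8 had a window, 14 windows in all, and 2 genes held the repeat. These 2 are the classical targets from which the element was chosen, so their matches carry no test. Crabp2 has no entry in the table. Repeats of the same hexamers spaced by 1 or 2 bases were found in 0.222% and 0.268% of all windows and in 0 of the members' windows. A match describes these letters only.

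The array scale and the labels were checked first. Deposited signals ran from 2.73 to 13.7 on the log2 scale with array medians of 5.61 to 5.69. Arrays correlated at 0.987 to 0.993 within Pax7-GFP cells and at 0.997 within ES cells, across genes. All 8 muscle markers were higher in Pax7-GFP cells, with summed linear signals of 12263 to 14377 in Pax7-GFP against 468 to 519 in ES cells. These were Pax7, Myf5, Myod1, Myog, Met, Fgfr4, Cdh15 and Chrna1. Myog had the highest mean of them in Pax7-GFP cells, at 11.37. All 8 ES markers were lower, with sums of 558 to 693 against 12688 to 13301 in ES cells. Pax7 is among the muscle markers, and the sort selects for it. No marker named here or below has a signal of 0 on any array.

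Of the 9 members, 3 were higher in Pax7-GFP cells (Rarb, Crabp2 and Rara) and 2 were lower (Aldh1a2 and Crabp1). A gene was called at a limma adjusted p under 0.05 with at least a 2-fold difference. By that rule 14.5% of all genes were called, 7.34% higher and 7.15% lower. The members were chosen with results of these data known, so the 5 of 9 carry no test. Without a minimum fold 8 of 9 members passed, against 41.1% of all genes, and the groups of 3 arrays did not overlap for 8 of 9, against 51.9%. The exception both times was Cyp26a1. The members' median difference was 0.52 on the log2 scale, beside 0.024 for all genes. These are bulk measurements, in which fewer cells of a type and less RNA per cell cannot be told apart.

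**Figure D1:**
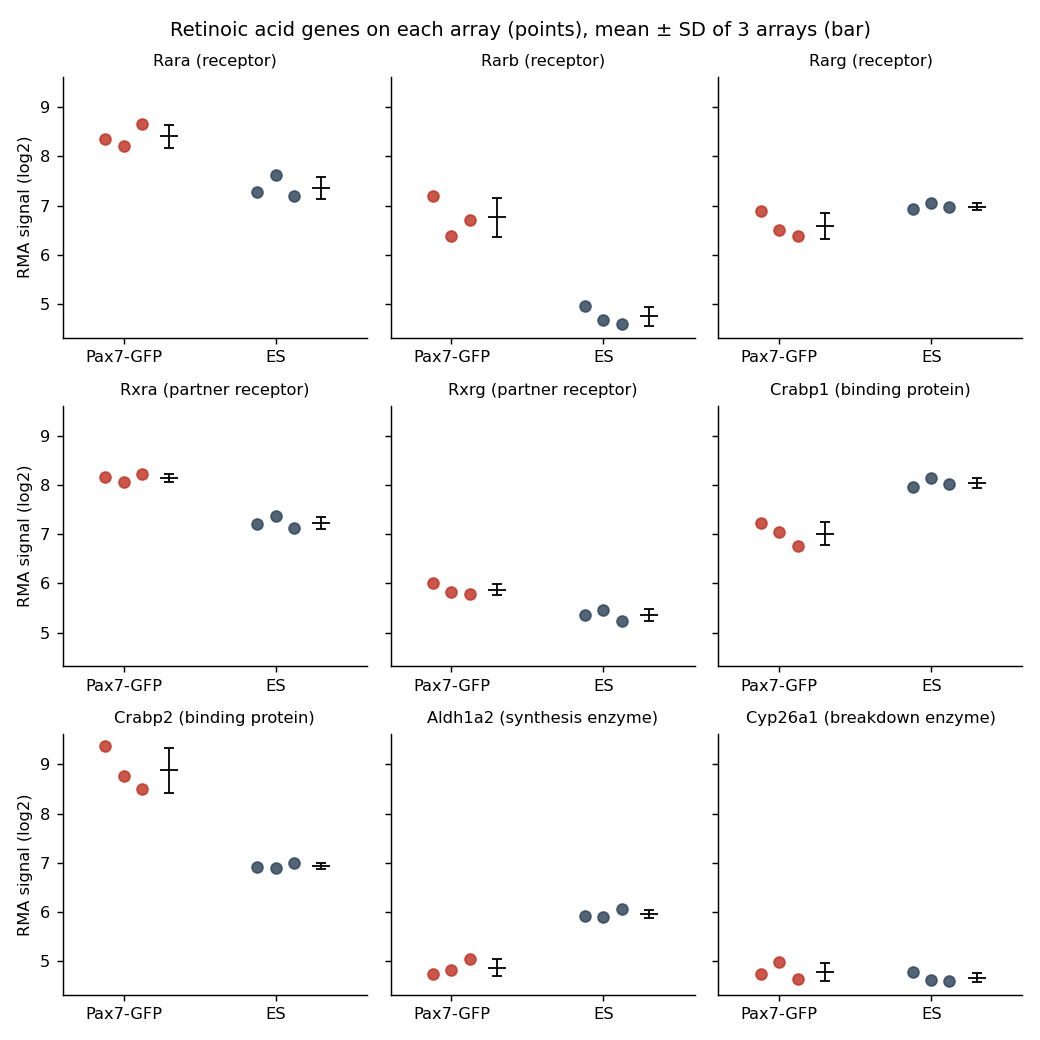
Log2 signal (vertical axis) of the 9 retinoic acid genes on each of the 3 Pax7-GFP arrays (left in each panel) and 3 ES arrays (right), with mean ± SD. Rarb and Crabp2 stand apart most between the groups, Crabp1 and Aldh1a2 are lower in Pax7-GFP cells, and the Cyp26a1 groups overlap.

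Among the receptors, Rarb changed most. Rarb signals were 7.19, 6.38 and 6.71 on the log2 scale in Pax7-GFP cells, against 4.96, 4.69 and 4.60 in ES cells. Every Pax7-GFP array lay above every ES array, and in ES cells the probe set was below the array median. Rarb averaged 6.76 ± 0.40 in Pax7-GFP and 4.75 ± 0.19 in ES cells (SD, n = 3 each). The difference was 2.01 (SE 0.20), or 4.03-fold (limma, adjusted p = 6.58e-05). Rarb was the only member past 4-fold, a size that 4.55% of all genes reached at an adjusted p under 0.05. It lies at the edge of that size, at 1.97 with quantile normalisation or array weights, 1.99 with median centring, 1.80 without Pax7-GFP replicate 1, 1.98 without ES replicate 2 and 1.94 without ES replicate 3.

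Rara, the receptor found in most tissues, rose less. Rara signals were 8.35, 8.20 and 8.66 in Pax7-GFP cells, against 7.27, 7.61 and 7.20 in ES cells. The groups did not overlap, and ES replicate 2 was the nearest to the Pax7-GFP arrays. The difference was 1.04 (SE 0.15), or 2.06-fold (limma, adjusted p = 0.000605). It stands close to the 2-fold minimum and fell short of it without Pax7-GFP replicate 3 (0.92), ES replicate 1 (0.998) or ES replicate 3 (0.96).

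Rarg, the third receptor, was not called. Rarg signals were 6.89, 6.49 and 6.38 in Pax7-GFP cells, against 6.92, 7.05 and 6.97 in ES cells. All Pax7-GFP arrays lay below the ES arrays, the first of them by a small margin. The difference was -0.39 (SE 0.13), which passed the p threshold alone (limma, adjusted p = 0.0473) in 7 of 15 alternatives, where adjusted p ran between 0.00116 and 0.149.

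The receptors' differences were of unequal size. A probe set's level cannot be set against another's, but the difference of a pair of genes on each array can be compared between groups. Rarb minus Rarg was 0.29, -0.11 and 0.33 in Pax7-GFP cells and -1.96, -2.36 and -2.37 in ES cells, a shift of 2.40 on the log2 scale. Rara minus Rarg shifted by 1.43 and Rarb minus Rara by 0.97, each without overlap between groups. With 3 arrays against 3 an exact two-sided permutation test cannot go below p = 0.1, and all 6 pairs compared stood at 0.1 before and after adjustment over the 6.

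**Figure D2:**
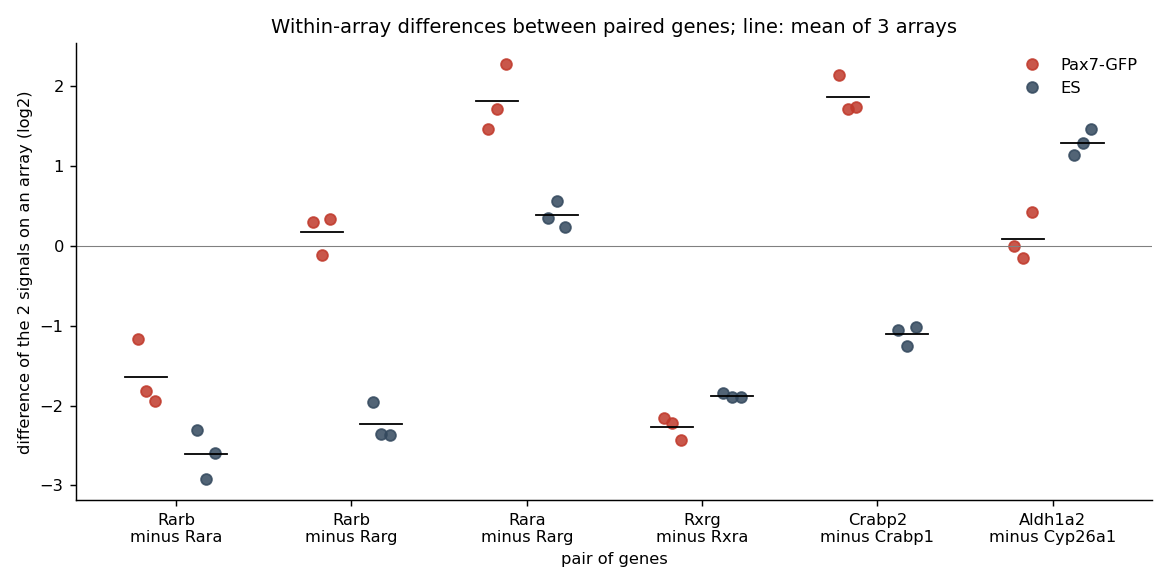
Difference of the log2 signals of a pair of genes on each array (vertical axis) for 6 pairs, with Pax7-GFP arrays left of ES arrays and a line at the mean of 3. The groups separate in every pair, most for Crabp2 minus Crabp1, which shifted by 2.97, and least for Rxrg minus Rxra, which shifted by -0.40.

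The partner receptors stood higher in Pax7-GFP cells by less than 2-fold, and neither was called. Rxra, the broadly expressed partner, had signals of 8.16, 8.06 and 8.21 in Pax7-GFP cells, against 7.21, 7.36 and 7.12 in ES cells. Its arrays were tight in both groups, and the difference was 0.91 (SE 0.094, limma, adjusted p = 8.97e-05), just short of the 2-fold minimum. Rxrg, a partner known from skeletal muscle and brain, had signals of 5.999, 5.84 and 5.78 in Pax7-GFP cells, against 5.37, 5.47 and 5.23 in ES cells. Its groups did not overlap either, and the difference was 0.52 (SE 0.099, limma, adjusted p = 0.00308), with Rxrg near the array median throughout. Rxrg minus Rxra shifted by -0.40 on the arrays. Rxrb, the remaining family member, differed by 0.15 (95% confidence interval -0.057 to 0.35, limma, adjusted p = 0.240).

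The binding proteins went in opposite directions. Crabp2, which passes retinoic acid to receptors in the nucleus, had signals of 9.37, 8.75 and 8.50 in Pax7-GFP cells, against 6.91, 6.90 and 6.999 in ES cells. All Pax7-GFP arrays were well above the ES arrays, and they were spread more widely. Crabp2 averaged 8.88 ± 0.45 in Pax7-GFP and 6.93 ± 0.056 in ES cells (SD, n = 3 each), a difference of 1.94 (SE 0.20) or 3.84-fold (limma, adjusted p = 8.62e-05). Pax7-GFP replicate 1 was the highest array for both Crabp2 and Rarb, and without it the differences were 1.69 and 1.80, both still called.

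Crabp1, which is linked to the turnover of retinoic acid in the cytoplasm, fell. Crabp1 signals were 7.23, 7.04 and 6.76 in Pax7-GFP cells, against 7.96, 8.15 and 8.01 in ES cells. The groups did not overlap, and Crabp1 stayed above the array median in both. The difference was -1.03 (SE 0.13, limma, adjusted p = 0.000262), or 2.04-fold lower in Pax7-GFP cells. It was short of 2-fold without Pax7-GFP replicate 3 (-0.90) or ES replicate 2 (-0.97). Crabp2 minus Crabp1 shifted by 2.97 on the arrays, 7.82-fold, averaging 1.86 ± 0.24 in Pax7-GFP and -1.11 ± 0.13 in ES cells (SD, n = 3 each).

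Crabp1 is also abundant in developing neurons, and part of the neural marker list was lower too. Of 8 neural markers 4 were lower (Stmn2, Nefl, Tubb3 and Sox1, at -5.51, -4.85, -4.30 and -1.10), Map2 was higher at 1.46, and Pax6, Elavl3 and Neurod1, at -0.27, -0.12 and 0.094, were not called. Their summed linear signal, in which Stmn2, Nefl and Tubb3 had the highest ES signals, was 463 to 535 in Pax7-GFP against 3508 to 3618 in ES cells. The neural crest and glia list, with 4 of 6 genes measured, had 2 lower, Tfap2a at -2.97 and Foxd3 at -1.69. Sox10 and Ngfr, at 0.20 and 0.050, were not called. The sums of this list were 366 to 372 in Pax7-GFP against 798 to 910 in ES cells. The part of the cells behind either list in the fall of Crabp1 was not tested.

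Aldh1a2, the main enzyme making retinoic acid in early mesoderm, was lower. Aldh1a2 signals were 4.74, 4.83 and 5.06 in Pax7-GFP cells, against 5.92, 5.91 and 6.06 in ES cells. The groups were clear of each other, with the Pax7-GFP arrays below the array median and the ES arrays slightly above it. The difference was -1.09 (SE 0.10), or 2.124-fold lower in Pax7-GFP cells (limma, adjusted p = 6.20e-05), and it was called with every single array left out. No detection calls accompany these signals, so a low signal is not shown to be absence. Mesothelial and epicardial markers, cells that also make this enzyme, had 0 of 6 called in the limma fit (3 passed the p threshold alone) and sums of 375 to 396 in Pax7-GFP against 350 to 371 in ES cells.

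Cyp26a1, the enzyme that breaks down retinoic acid, showed no call. Cyp26a1 signals were 4.74, 4.98 and 4.63 in Pax7-GFP cells, against 4.78, 4.62 and 4.60 in ES cells. The groups overlapped and all 6 values lay below the array medians. The difference was 0.12 (95% confidence interval -0.14 to 0.37, limma, adjusted p = 0.458), so that the interval does not reach 2-fold on either side, on a signal scale that RMA compresses near background. Of the promoters printed above, which carry near-identical repeats close to the start site, that of Rarb therefore belongs to a gene that rose and that of Cyp26a1 to one that was not called. The other 29 genes with this repeat were looked at after these values were seen. On the array 11 were named, of which 1 was higher, 0 were lower and 10 were not called. Their median was 0.025, beside 0.024 for all genes, of which 14.5% were called. The higher one was Ppbp, a platelet chemokine, at 1.63 (SE 0.21, limma, adjusted p = 0.000309).

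Aldh1a2 minus Cyp26a1 shifted by -1.20 on the arrays, averaging 0.088 ± 0.30 in Pax7-GFP and 1.29 ± 0.16 in ES cells (SD, n = 3 each). The related enzymes did not pass the call. Aldh1a1, another synthesis enzyme, differed by 0.73 (SE 0.14, limma, adjusted p = 0.00342), and Aldh1a3 by 0.070 (limma, adjusted p = 0.642). Cyp26b1 and Cyp26c1, the other breakdown enzymes, differed by 0.18 and 0.22 (limma, adjusted p = 0.149 and 0.256), with overlapping groups.

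Handling of vitamin A and retinoic acid differed gene by gene. Among 26 measured genes of retinoid transport and synthesis, there were 4 higher, 2 lower and 20 not called, 7 of which passed the p threshold alone. Their median difference was 0.17, beside 0.024 for all genes, and 23.1% were called, beside 14.5% of all genes. Fabp5, which carries retinoic acid to the receptor Ppard, had the largest rise. Fabp5 signals were 9.62, 9.57 and 9.38 in Pax7-GFP cells, against 6.41, 6.39 and 6.31 in ES cells, a difference of 3.16 (SE 0.092) or 8.91-fold. Its arrays lay close together within each group. Fabp5 has pseudogene copies, so its probe set is uncertain to this gene alone. Ppard itself differed by -0.019 (limma, adjusted p = 0.892).

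Stra6, the cell surface receptor for the vitamin A carrier Rbp4, was also higher. Stra6 signals were 8.45, 8.38 and 8.92 in Pax7-GFP cells, against 6.36, 6.10 and 6.43 in ES cells, a difference of 2.29 (SE 0.16). Dhrs3, which turns retinaldehyde back into retinol and so lowers the supply for synthesis, had 8.06, 7.11 and 7.51 in Pax7-GFP cells, against 5.84, 6.01 and 5.86 in ES cells, a difference of 1.65 (SE 0.21). Both sets of groups were clear of each other. Rdh5, a retinol dehydrogenase best known from the eye, rose by 1.08 (SE 0.12), and was short of 2-fold without ES replicate 1 (0.97).

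Retsat, which saturates retinol, fell by 1.39 (SE 0.084) on the log2 scale, and Adh5, a broadly expressed alcohol dehydrogenase, fell by 1.08 (SE 0.11). The 6 called genes of this list had limma adjusted p-values from 8.00e-08 to 0.000317. The genes of this list that were not called ranged from -0.84 to 0.89. Rdh10, the main retinol dehydrogenase of the embryo, was among them at 0.27 (limma, adjusted p = 0.244).

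Among other partners of Rxr receptors, Nr4a1 and Thra were called. Of 13 measured, there were 2 higher, 0 lower and 11 not called, with a median of 0.0090. The 15.4% called is close to the 14.5% of all genes. Nr4a1, an immediate early gene that can pair with Rxr, rose by 2.68 (SE 0.12), averaging 11.24 ± 0.24 in Pax7-GFP and 8.57 ± 0.038 in ES cells (SD, n = 3 each). Thra, a thyroid hormone receptor, had 8.77, 7.53 and 7.69 in Pax7-GFP cells, against 6.05, 6.23 and 6.34 in ES cells, and rose by 1.79 (SE 0.29). Pax7-GFP replicate 1 was again the highest array. The remaining 11 ranged from -0.33 to 0.48.

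**Figure D3:**
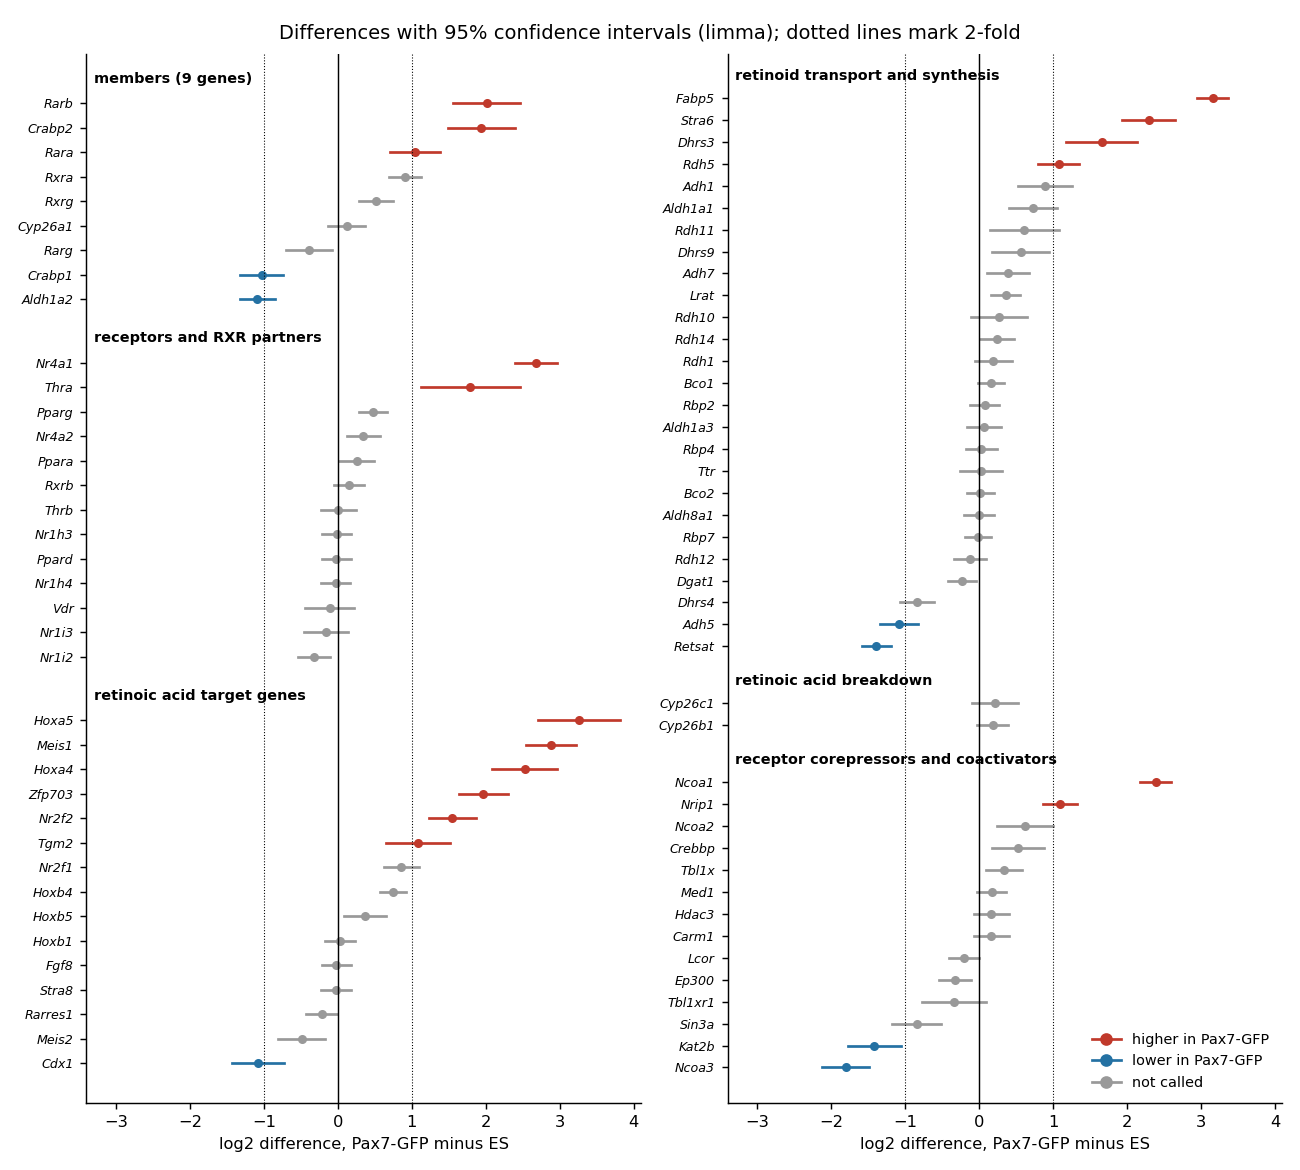
Log2 difference, Pax7-GFP minus ES (horizontal axis), with 95% confidence intervals for the 9 members and 70 measured genes of 5 pathway lists. Red marks genes called higher, blue genes called lower and grey genes not called, and dotted lines mark 2-fold.

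Coregulators of the receptors moved both ways. Of 14 measured, there were 2 higher, 2 lower and 10 not called, and a median of 0.16. That is 28.6% called, beside 14.5% of all genes. Ncoa1 and Ncoa3, coactivators of the same p160 family, parted. Ncoa1 signals were 10.77, 10.73 and 10.77 in Pax7-GFP cells, against 8.23, 8.40 and 8.49 in ES cells, a difference of 2.39 (SE 0.091). Ncoa3 signals were 8.76, 8.23 and 8.54 in Pax7-GFP cells, against 10.20, 10.32 and 10.41 in ES cells, a difference of -1.80 (SE 0.14). In both cases the groups were clear of each other. Nrip1, a ligand-dependent corepressor, rose by 1.09 (SE 0.10), and Kat2b, an acetyltransferase, fell by 1.42 (SE 0.16). The 4 had limma adjusted p-values from 3.34e-07 to 0.000132.

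Among genes known to respond to retinoic acid, most called ones were higher in Pax7-GFP cells. The 15 measured genes included 6 higher, 1 lower and 8 not called, with a median difference of 0.75. That is 46.7% called, beside 14.5% of all genes, whose median was 0.024. The list was chosen with results of these data known, so the share carries no test. The 5 lists together had 14 higher, 5 lower and 51 not called of 70 measured, or 27.1% called, with a median of 0.17. These genes answer to other signals as well. Meis1, a homeodomain partner of Hox proteins, had 8.38, 7.99 and 8.57 in Pax7-GFP cells, against 5.36, 5.38 and 5.56 in ES cells, a difference of 2.88 (SE 0.15). Its groups were clear of each other, whereas the related Meis2 stood at -0.49 (SE 0.14, limma, adjusted p = 0.0212) and was not called.

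Hoxa5 and Hoxa4, which mark position along the trunk, rose by 3.26 (SE 0.24) and 2.53 (SE 0.19). Zfp703, a zinc finger repressor, rose by 1.97 (SE 0.15), Nr2f2, an orphan nuclear receptor, by 1.54 (SE 0.14), and Tgm2, a transglutaminase, by 1.08 (SE 0.19). Tgm2 was short of 2-fold without Pax7-GFP replicate 1 (0.87) or with array weights (0.94). Cdx1, named after its values were seen, was the lower gene. Cdx1 signals were 5.53, 5.68 and 5.96 in Pax7-GFP cells, against 6.69, 7.09 and 6.63 in ES cells, a difference of -1.08 (SE 0.15), and it was not called without Pax7-GFP replicate 1, without ES replicate 2 or with array weights. The 7 called genes had limma adjusted p-values from 1.65e-06 to 0.00176. The 8 genes not called ranged from -0.49 to 0.86, and 4 of them passed the p threshold alone. Nr2f1 and Hoxb4 were the highest of the 8, at 0.86 and 0.75 (limma, adjusted p = 0.000215 and 8.86e-05). Without a minimum fold, 9 genes of the list were higher and 2 lower. Stra8 and Hoxb1, which respond to retinoic acid in germ cells and hindbrain, stood at -0.026 and 0.023 (limma, adjusted p = 0.855 and 0.876).

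Retinoid genes are also active in connective tissue, and some markers of those cells were higher in Pax7-GFP cells. Of 6 fibroblast markers 4 were higher (Dcn, Osr1, Col3a1 and Pdgfra, at 3.03, 2.57, 2.53 and 1.48). Pax7-GFP replicate 1 was the highest array for Dcn, Osr1 and Pdgfra, as for Rarb, Crabp2 and Thra, and replicate 3 for Col3a1. Col1a1 and Twist2, at 0.53 and -0.13, were not called. The 6 had summed linear signals of 2387 to 3338 in Pax7-GFP against 838 to 1132 in ES cells. Col1a1, which was not called, had the highest signal of the 6 in both groups. Of 5 chondrogenic markers 1 was higher, Sox9 at 3.01, while Col2a1, Acan, Matn1 and Matn4, at -0.054, -0.35, -0.013 and 0.14, were not called. The chondrogenic sums, 746 to 970 in Pax7-GFP against 268 to 305 in ES cells, thus differ through Sox9. Among 5 endothelial markers Cdh5 was higher at 1.41 and Pecam1 lower at -2.43. Kdr, Emcn and Tek, at 0.19, 0.14 and -0.79, were not called. Endothelial sums were 236 to 309 in Pax7-GFP and 463 to 493 in ES cells, with Pecam1 the highest ES signal. Among 5 haematopoietic markers Laptm5 and Cd68 were lower, at -2.81 and -1.56. Tyrobp, Cd52 and Ptprc, at 0.54, 0.21 and 0.0011, were not called. Haematopoietic sums were 281 to 386 in Pax7-GFP and 898 to 1033 in ES cells, with Cd68 and Laptm5 the highest ES signals. The part of any of these cell types in the results was not tested.

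The genes whose profiles over the 6 arrays lay nearest to those of Rarb, the called member with the largest rise, and Aldh1a2, that with the largest fall, were found by the smallest Euclidean distance after each gene was centred on its own mean. For Rarb they were Sardh, Dach1 and Kctd12, at distances of 0.24, 0.31 and 0.31 log2 units and with differences of 2.08, 2.10 and 1.89. For Aldh1a2 they were Samm50, Ppp2r1b and Snhg4, at 0.0984, 0.0997 and 0.109 log2 units and with differences of -1.08, -1.04 and -1.04. With 2 groups, such likeness mostly reflects the size of the difference.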

How the data were processed

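Gene expression was measured on single-colour arrays in 6 mouse samples, 3 of Pax7-GFP cells and 3 of ES cells, and biotin-labelled cRNA was made with a double amplification, per the labels' protocols. The authors deposited RMA signals on the log2 scale, made with RMA and R 2.12.1 per the submitters' processing notes. The probe set definition is not given in the sources used here. Of 41345 rows, 23521 carried 1 gene symbol in GEO's platform annotation, 1814 several, and 16010 were unnamed here. A gene was represented by its probe set with the highest mean, which gave 22180 genes.

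Groups were compared with limma 3.58.1 in R 4.3.3 (lmFit, eBayes, two-sided, Benjamini-Hochberg over all 22180 genes). With 3 arrays a group, precision is limited. The titles call the replicates biological without saying whether cultures were separate, so the p-values cover only the spread among these 6 samples, which may be technical. Same-numbered arrays did not deviate together (r = -0.11, -0.22 and 0.0070 across genes) and were not paired. On simulated data the fit called 96 of 100 genes changed by 1.5, 100 of 100 changed by 3, and 1 of 21980 unchanged genes. The simulation gave both groups the same SD, whereas the median SD was 0.14 in Pax7-GFP and 0.084 in ES cells. It held no change closer to 2-fold, so it does not cover the calls of Rara, Crabp1 and Aldh1a2. The members and lists were chosen with earlier results of these data known. By rule, the named genes were the 9 members, up to 6 called genes a list, the members' paralogs, and the 3 nearest profiles of 2 members. Named outside that rule are the markers, Cdx1, Ppbp and some list genes not called (Ppard, Rdh10, Meis2, Stra8, Hoxb1, Nr2f1 and Hoxb4). Results were recomputed with other scalings, arrays left out, a floor on signals, dim genes removed, other probe set rules, other fold thresholds, a replicate block, and weights or a trend in the fit. Promoter sequences are from RefSeq (GRCm38.p6). Some list genes are not reported here.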

Additional observations from a re-analysis of the deposited data

How the results depend on the processing

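Across changes of scaling, signal floor, dim-gene filter, probe set rule, variance prior, array weights and replicate block, 3 members were higher and 2 lower each time, and 0 changed sign. With the replicate block the counts were 3 and 2, and 1628 and 1585 over all genes. It changed no call of a member, and Rarg then had an adjusted p of 0.0649 (range over alternatives 0.00116 to 0.149). The dim-gene filter left Cyp26a1 out. Leaving out single arrays gave 2 to 3 members higher and 1 to 2 lower, with Rara at 0.92 to 1.17, Rarb at 1.80 to 2.20, Crabp1 at -1.14 to -0.90, Crabp2 at 1.69 to 2.13, Aldh1a2 at -1.18 to -1.02, Rxra at 0.86 to 0.98, Rxrg at 0.45 to 0.57, Rarg at -0.54 to -0.29 and Cyp26a1 at 0.018 to 0.19. Thresholds moved counts by construction. Without a minimum fold 5 members were higher, and 4378 genes were higher and 4748 lower, which adds Rarg (-0.39), Rxra (0.91) and Rxrg (0.52). At 4-fold 1 member was higher and 0 lower (537 and 473 of all genes), which drops Rara (1.04), Crabp1 (-1.03), Crabp2 (1.94) and Aldh1a2 (-1.09). A limma test against 2-fold left 0 members lower (879 higher and 834 lower of all genes) and dropped Rara, Crabp1 and Aldh1a2. Tested as probe sets, 7 probe sets of the transport and synthesis list were higher, against 4 genes. A gene can have several probe sets, and with their mean 4 genes of this list were higher.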
